A study of Mus musculus with 42 samples.

Results

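Brwd1, Brwd3 and Phip form the mammalian BRWD family. These 3 genes were taken by name from the 52636 genes counted in the culture libraries, and every peak that named one of them was taken from 6 lists. Those lists held 100790 peaks in all, of which 16 named a family member. The SMARCA2/4 lists of euploid, Ts65Dn and Ts65Dn;Brwd1+/- held 3, 1 and 1 of them, and the ATAC lists 4, 4 and 3.

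BRWD proteins carry WD40 repeats at one end and paired bromodomains, modules that read acetylated histones, at the other. Members are known as substrate receptors of the CUL4-DDB1 (CRL4) ubiquitin ligase and have been tied to chromatin with methylated lysine 4 of histone H3. Brwd1 is needed in the germline and in developing B cells, Phip was named for binding the pleckstrin homology domain of insulin receptor substrate 1, and variants of the human genes BRWD3 and PHIP are known from intellectual disability. In the mouse Brwd1 lies in the part of chromosome 16 that is present in an extra copy in Ts65Dn, while Phip and Brwd3 lie outside it.

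Of the 42 samples in the series, 9 were RNA-seq libraries of neuronal cultures from forebrain at embryonic day 16, with 3 libraries in each of 3 genotypes. By the paper's methods, cortical cells were dissected at that age and grown in culture before collection, with AraC to hold back dividing glia. Euploid animals had the normal karyotype. Ts65Dn animals carried the extra chromosome with distal chromosome 16 and proximal chromosome 17. Ts65Dn;Brwd1+/- animals carried that chromosome together with 1 disrupted Brwd1 allele, repro5, which entered through the father. All came from a mixed DBA/2J and B6EiC3Sn/J background, and the culture labels give pooled sexes. SMARCA2/4 chromatin immunoprecipitation, which maps the ATPases of the BAF remodelling complex, was made from male hippocampus at 6 to 8 weeks with tissue of 2 animals in each of 4 replicates per genotype. ATAC-seq, which maps open chromatin, was made from sorted neuronal (NeuN+) nuclei of adult male hippocampus with 3 replicates per genotype. Each of the 6 peak lists pools the replicates of a genotype, so peak values have no replicate error. The paper's methods describe cortices dissociated embryo by embryo and animals counted separately. The labels do not tie the culture replicates to separate embryos or litters, so p-values here measure the spread between these libraries, which may be technical.

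Library totals ran from 17270070 to 25892802 counts over genes. The libraries under the Ts65Dn;Brwd1+/- label differed from the other 6 in sex-linked genes. Xist, the RNA that coats the inactive X chromosome, was at 1409 to 1982 CPM (counts scaled to library size) in them and at 0.526 to 1.12 in the others, while 4 Y-linked genes together were at 0.0557 to 0.149 CPM against 194 to 223. No library held both Xist and the Y-linked genes at high levels, so these values do not bear out the pooled sexes of the labels. Sex and this genotype therefore cannot be told apart in the cultures. Pan-neuronal markers, 12 genes, summed to 4490 to 5476 CPM in euploid, 1153 to 2972 in Ts65Dn and 4530 to 5784 in the libraries under the Ts65Dn;Brwd1+/- label, so the cultures expressed the markers of the labelled cell type at unequal levels. The 12 astrocyte markers summed to 5583 to 6576, 7926 to 8992 and 5366 to 6284 CPM, and the 12 cell-cycle genes to 274 to 294, 377 to 438 and 655 to 673 CPM. In Ts65Dn against euploid 10 of the 12 pan-neuronal genes fell and 12 of the 12 cell-cycle genes rose, beside 21.1% of all tested genes lower and 25.6% higher. In bulk libraries fewer cells of a type and less RNA per cell cannot be told apart.

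The 3 genes lie on different chromosomes, all on the minus strand in the mm10 (GRCm38) build. Brwd1 (ENSMUSG00000022914) spans chromosome 16 from 95992092 to 96082526, Brwd3 (ENSMUSG00000063663) the X chromosome from 108737016 to 108834372, and Phip (ENSMUSG00000032253) chromosome 9 from 82866159 to 82975516. Their longest coding transcripts have 41, 41 and 40 exons. A member of the HMGN family of nucleosome-binding proteins is the next protein-coding gene upstream of each, Hmgn1 at 38092 bases from Brwd1, Hmgn5 at 170162 bases from Brwd3 and Hmgn3 at 134432 bases from Phip.

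The sequences below are shown because open chromatin was called over each start site and because a single SMARCA2/4 peak recurred in Brwd1. They are RefSeq GRCm38.p6 sequence read 5′ to 3′ on the minus strand, and all 3 members matched the promoter table. In the promoters, which are the 250 bases before the RefSeq start, capitals mark CpG dinucleotides.
Brwd1 promoter, chr16:96082429-96082678: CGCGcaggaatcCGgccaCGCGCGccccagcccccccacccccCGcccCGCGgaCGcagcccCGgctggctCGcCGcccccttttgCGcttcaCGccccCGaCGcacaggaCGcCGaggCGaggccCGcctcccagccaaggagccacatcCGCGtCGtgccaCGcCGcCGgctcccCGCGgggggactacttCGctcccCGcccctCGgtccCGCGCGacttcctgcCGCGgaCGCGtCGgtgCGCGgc
Brwd3 promoter, chrX:108834347-108834596: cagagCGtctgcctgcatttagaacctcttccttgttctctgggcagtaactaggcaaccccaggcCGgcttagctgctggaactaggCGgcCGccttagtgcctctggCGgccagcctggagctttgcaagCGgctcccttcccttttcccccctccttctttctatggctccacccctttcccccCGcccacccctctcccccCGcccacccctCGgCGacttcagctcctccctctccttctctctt
Phip promoter, chr9:82975490-82975739: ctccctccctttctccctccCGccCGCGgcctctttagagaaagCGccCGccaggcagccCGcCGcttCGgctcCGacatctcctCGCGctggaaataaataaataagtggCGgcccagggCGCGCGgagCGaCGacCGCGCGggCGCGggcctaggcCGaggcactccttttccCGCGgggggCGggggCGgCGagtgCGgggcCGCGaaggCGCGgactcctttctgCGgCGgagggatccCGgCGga

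The Brwd1 and Phip promoters were CpG-dense and the Brwd3 promoter was not. They held 42 and 37 CpGs against 10, where the median of 32851 promoters of the table was 6. GC content was 79.6%, 72.4% and 62.8%. The GC box GGGCGG, searched on both strands, occurred 3 times in Brwd1, 3 times in Phip and 2 times in Brwd3, and 32.7% of all promoters held it. The letters CCGGAAG, an ETS site, were in none of the 3 windows and in 6.91% of all promoters. The letters GCCATNTT, a YY1 site, were in none of the 3 and in 3.91% of all. The cAMP response element (TGACGTCA) was in none and in 1.55% of all, and no window held a TATA box, searched as TATAAA, against 12.4% of all. The CCAAT box was in none of the 3 windows either, against 33.8% of all promoters. Matches were counted on both strands, and a match is a run of letters and not a site of binding.

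The SMARCA2/4 peak inside Brwd1 covered a coding exon, exon 10 in RefSeq, at 96059582 to 96059652. Here capitals mark the 71 bases of that exon and lower case the intron that follows it.
Brwd1 exon 10 peak, chr16:96059477-96059652: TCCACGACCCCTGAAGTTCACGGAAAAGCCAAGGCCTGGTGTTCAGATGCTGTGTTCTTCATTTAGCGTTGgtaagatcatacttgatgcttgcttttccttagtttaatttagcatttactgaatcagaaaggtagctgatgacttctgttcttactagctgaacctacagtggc

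Brwd1 rose in Ts65Dn. Its counts were 1920, 1958 and 1959 in the euploid libraries, 3165, 2554 and 2835 in Ts65Dn, and 3254, 2625 and 3331 in the libraries under the Ts65Dn;Brwd1+/- label. Scaled to CPM with TMM factors, the euploid libraries stood at 93.2, 85.9 and 89.2. The Ts65Dn libraries stood at 129, 126 and 125 CPM. The libraries under the Ts65Dn;Brwd1+/- label stood at 145, 146 and 124 CPM. All 6 trisomic libraries were above all 3 euploid libraries, and the sets from the 2 trisomic genotypes overlapped.

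**Figure D1:**
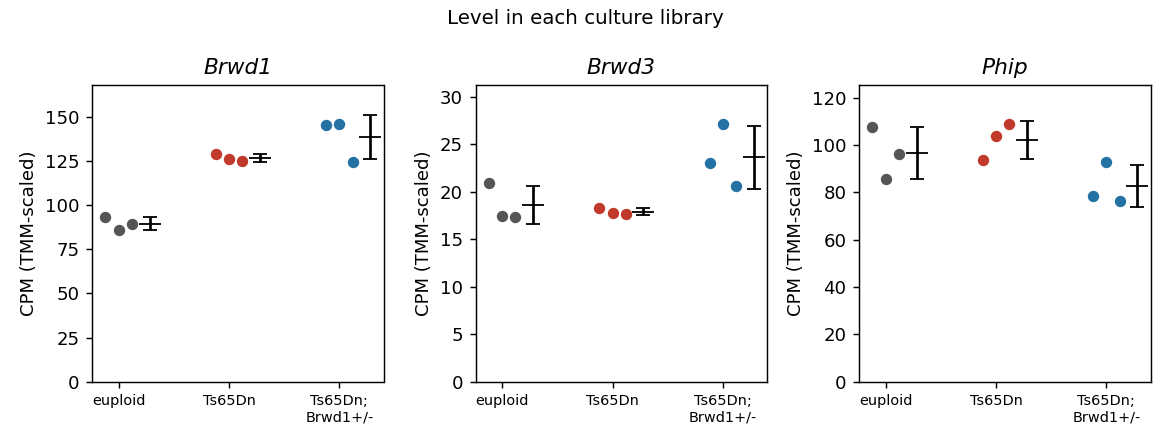
Level of each gene (TMM-scaled CPM, linear axis from 0) in each of the 9 culture libraries by genotype; points are libraries, and the bar and whiskers are the mean ± SD of 3 libraries. The 3 euploid Brwd1 points, 85.9 to 93.2 CPM, lie below the 6 trisomic points, 124 to 146 CPM, while Phip and Brwd3 show smaller separations.

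In Ts65Dn against euploid, Brwd1 rose by 0.50 on the log2 scale (SE 0.08, 95% interval 0.33 to 0.68, adjusted p = 0.000787, quasi-likelihood test of edgeR, Benjamini-Hochberg adjusted over 17173 genes), or 1.42-fold. The interval holds 0.58, the log2 ratio of 3 gene copies to 2. In this comparison 46.7% of all tested genes passed the same threshold and 25.6% passed it upward, and 56.8% of genes had groups that did not overlap. Among 134 tested genes of the triplicated segment, Brwd1 ranked 79th from the highest, with a segment median of 0.63 and an interquartile range of 0.24 to 0.99 on the log2 scale. The other tested genes had a median of 0.04. Of the segment genes, 92 rose, 7 fell and 35 did not pass the test.

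Brwd1 was not lower in the libraries under the Ts65Dn;Brwd1+/- label than in Ts65Dn. The difference was 0.13 on the log2 scale (SE 0.08, 95% interval -0.05 to 0.30, adjusted p = 0.186, edgeR), with 58.1% of tested genes past the threshold in this comparison. The loss of 1 of 3 equally used copies would be -0.58, which lies below the interval. With single libraries left out, the difference ran from 0.10 to 0.20 (adjusted p from 0.0522 to 0.387, edgeR). Against euploid the same libraries were higher by 0.63 (SE 0.08, 95% interval 0.46 to 0.81, adjusted p = 0.000297, edgeR), or 1.55-fold, where 29.2% of genes passed the threshold and 14% passed it upward. Groups did not overlap for 68.4% of genes in the comparison with Ts65Dn and for 45.9% in that with euploid. The count sums reads over the whole gene and does not tell the disrupted allele from the intact ones, so this level alone does not check the label. In these libraries 82 of the 134 segment genes rose against euploid and 5 fell, with a median of 0.55 on the log2 scale.

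Against Ts65Dn, the libraries under the Ts65Dn;Brwd1+/- label had segment genes called in shares near those of all genes. Of the 134, 34 rose and 41 fell, beside 27.6% and 30.5% of all tested genes, with a median of -0.01 on the log2 scale. Brwd1 stood 2.89 to 3.02 above the mean log2 CPM of the other segment genes in euploid, 2.81 to 2.82 above it in Ts65Dn and 2.96 to 3.19 above it in the libraries under the Ts65Dn;Brwd1+/- label. The Ts65Dn libraries were the lowest of the 3 genotypes by this measure, and the other 2 overlapped. The mean takes in segment genes with far larger changes than Brwd1. The share of segment genes that separate likewise was not computed.

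Brwd3, on the X chromosome, was the least abundant of the family. Its counts were 430, 399 and 382 in euploid, 449, 359 and 399 in Ts65Dn, and 517, 488 and 553 in the libraries under the Ts65Dn;Brwd1+/- label. These were 20.9, 17.5 and 17.4 CPM, then 18.3, 17.7 and 17.6 CPM, then 23.1, 27.2 and 20.6 CPM. The euploid and Ts65Dn values overlapped, and the lowest of the third genotype was below the highest euploid library.

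Brwd3 did not pass the test in Ts65Dn against euploid, at -0.05 on the log2 scale (95% interval -0.31 to 0.20, adjusted p = 0.724, edgeR). It rose in the libraries under the Ts65Dn;Brwd1+/- label against Ts65Dn, by 0.40 (SE 0.11, 95% interval 0.15 to 0.65, adjusted p = 0.0117, edgeR), or 1.32-fold, where 27.6% of all tested genes passed upward. Against euploid the difference was 0.34 (SE 0.11, 95% interval 0.09 to 0.59, adjusted p = 0.043, edgeR), where 14% passed upward. That last call was lost when any of 6 of the 9 libraries was left out, with values from 0.21 to 0.43 and adjusted p up to 0.214.

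The rise of Brwd3 came in the libraries with the female pattern of sex-linked genes. Of 8 listed genes that can escape X inactivation, 8 rose against Ts65Dn, among them the translation factor Eif2s3x (0.92 on the log2 scale), the histone H3 lysine 4 demethylase Kdm5c (0.71) and the ubiquitin ligase Mid1 (1.07). Xist itself is on that list. It served above to describe the female pattern, so its rise is not separate from that pattern. X-linked genes as a whole moved both ways. Of 598 tested, 182 rose and 165 fell, with a median of 0.05 on the log2 scale, and 30.4% higher stood beside 27.6% of all tested genes. Brwd3 ranked 171st from the highest of the 598. The part of sex in the Brwd3 difference was not tested, since no library of that genotype lacked the female pattern.

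Phip was as abundant in raw counts as Brwd1 in euploid and lower in the libraries under the Ts65Dn;Brwd1+/- label. Its counts were 2220, 1955 and 2117 in euploid, 2292, 2099 and 2470 in Ts65Dn, and 1758, 1665 and 2049 in the third genotype. The CPM values were 108, 85.8 and 96.4, then 93.6, 104 and 109, then 78.4, 92.7 and 76.5. The highest library of the third genotype was just below the lowest Ts65Dn library and above the lowest euploid library.

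Phip did not pass the test in Ts65Dn against euploid, at 0.08 on the log2 scale (95% interval -0.16 to 0.32, adjusted p = 0.574, edgeR). It fell by 0.31 in the libraries under the Ts65Dn;Brwd1+/- label against Ts65Dn (SE 0.11, 95% interval -0.55 to -0.07, adjusted p = 0.0306, edgeR). In that comparison 58.1% of all tested genes passed the threshold, 30.5% downward, and 68.4% had groups that did not overlap. Phip stood at the 32.4th percentile of log2 fold change. Against euploid Phip was at -0.23 (95% interval -0.47 to 0.01, adjusted p = 0.141, edgeR). With single libraries left out that value ran from -0.35 to -0.14 (adjusted p from 0.0536 to 0.396, edgeR). The fall against Ts65Dn lost its call with library sizes alone (-0.24, adjusted p = 0.0916), with scaling on genes outside the X, Y and triplicated segment (-0.24, adjusted p = 0.0778), with only genes of 10 counts in every library (-0.25, adjusted p = 0.0644), and without any of 4 single libraries (Ts65Dn replicates 2 and 3, and replicates 1 and 3 of the third genotype).

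**Figure D2:**
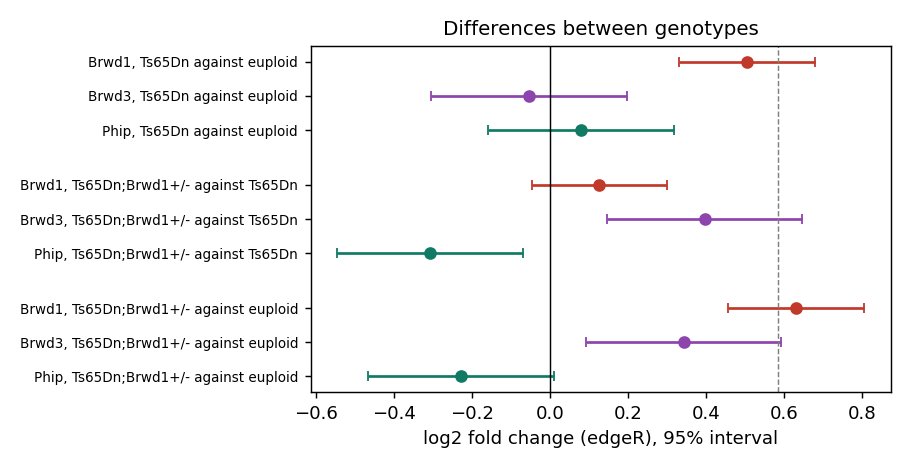
Log2 fold changes of the 3 genes in the 3 comparisons between genotypes, with 95% intervals from the edgeR fit to all 9 libraries; the solid line is 0 and the dashed line is 0.58, the log2 ratio of 3 copies to 2. Brwd1 lies above 0 in both comparisons with euploid, Brwd3 above 0 in both comparisons of the libraries under the Ts65Dn;Brwd1+/- label, and Phip below 0 in the comparison of those libraries with Ts65Dn.

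Ratios within a library do not depend on library scaling. Counts of Brwd1 over Phip, as log2 ratios with 1 added to each count, were -0.21, 0.00 and -0.11 in euploid. They were 0.47, 0.28 and 0.20 in Ts65Dn and 0.89, 0.66 and 0.70 in the libraries under the Ts65Dn;Brwd1+/- label. The 3 genotypes did not overlap in this ratio, and it was higher by 0.42 in Ts65Dn than in euploid and by a further 0.43 in the third genotype. Groups that do not overlap were common, at 56.8% of single genes for Ts65Dn against euploid, 68.4% for the third genotype against Ts65Dn and 45.9% for it against euploid, and the share among ratios of other gene pairs was not computed. For each step the two-sided exact permutation p was 0.1, the smallest that 3 libraries against 3 can give (adjusted p = 0.113 over 9 tests).

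The Brwd1 over Brwd3 ratio was most even in Ts65Dn. It was 2.81, 2.83 and 2.83 there, 2.16, 2.29 and 2.36 in euploid, and 2.65, 2.42 and 2.59 in the libraries under the Ts65Dn;Brwd1+/- label, so the third genotype lay between the others without overlap. Phip over Brwd3 was 2.37, 2.29 and 2.47 in euploid and 2.35, 2.54 and 2.63 in Ts65Dn, which overlapped (difference 0.13, exact permutation p = 0.3). With single libraries left out that difference ran from 0.07 to 0.21. Phip over Brwd3 was 1.76, 1.77 and 1.89 in the third genotype, lower by 0.70 than Ts65Dn and by 0.57 than euploid without overlap. The exact permutation p was 0.1 for every pair of genotypes in which the ratios did not overlap.

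**Figure D3:**
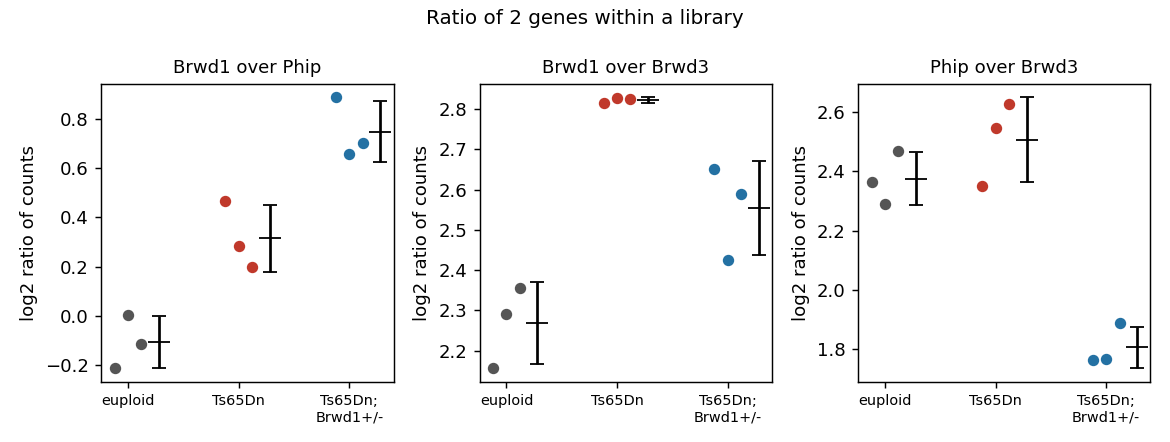
Log2 ratio of the counts of 2 family members within each culture library, by genotype (vertical axes do not start at 0); points are libraries, and bar and whiskers are mean ± SD of 3 libraries. Brwd1 over Phip climbs from a mean of -0.11 in euploid to 0.32 in Ts65Dn and 0.75 in the libraries under the Ts65Dn;Brwd1+/- label, while Phip over Brwd3 is lowest in the last, at 1.81.

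Levels of different genes were compared per kilobase of exon. With the union of annotated exons as length (20280 bases for Brwd1, 12692 for Brwd3 and 33312 for Phip), euploid cultures held 4.41 ± 0.18 CPM per kilobase of Brwd1, 2.90 ± 0.33 of Phip and 1.46 ± 0.16 of Brwd3 (SD, n = 3). With the longest coding transcript (9843, 11619 and 10756 bases), a choice made after the data were seen, they were 9.08 ± 0.37, 8.98 ± 1.02 and 1.60 ± 0.17. Brwd1 and Phip were thus within their spread of each other in euploid by that length and not by the other, and Brwd3 was lowest by both. In Ts65Dn Brwd1 was above Phip by both lengths, at 12.9 ± 0.22 against 9.49 ± 0.73 by the longest transcript.

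Summed over the family, the per-kilobase level by the exon union was 8.77 ± 0.65 in euploid, 10.7 ± 0.10 in Ts65Dn and 11.2 ± 1.05 in the libraries under the Ts65Dn;Brwd1+/- label (SD, n = 3). Brwd1 made up 50.3 ± 1.7%, 58.3 ± 1.5% and 61.2 ± 1.9% of that sum. Phip made up 33.0 ± 1.4%, 28.6 ± 1.9% and 22.2 ± 1.2%, and Brwd3 16.7 ± 0.78%, 13.1 ± 0.40% and 16.6 ± 0.89%. By the longest transcript the sums were 19.7 ± 1.54, 23.9 ± 0.48 and 23.8 ± 2.15, and the shares also differed from those by the exon union. Brwd1 then made up 46.3 ± 1.7%, 53.9 ± 2.0% and 59.2 ± 2.0%, Phip 45.6 ± 1.7%, 39.7 ± 2.3% and 32.3 ± 1.7%, and Brwd3 8.13 ± 0.41%, 6.44 ± 0.27% and 8.53 ± 0.46%. The share of Brwd1 was above every euploid library in all 6 trisomic libraries by both lengths.

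Genes that overlap Brwd1 or Brwd3 had low counts, and none of those annotated overlaps Phip. The opposite-strand gene Gm15342 inside Brwd1 had 0 to 7 counts per library and the microRNA gene Gm27833 0 to 1. The noncoding gene 2810403D21Rik, which runs away from Brwd3 on the opposite strand and shares 573 bases with its first part, had 18 to 56 counts. It rose by 0.49 on the log2 scale in Ts65Dn against euploid (adjusted p = 0.0469, edgeR), where Brwd3 was at -0.05. It fell by 1.03 in the libraries under the Ts65Dn;Brwd1+/- label against Ts65Dn (adjusted p = 0.00111, edgeR), where Brwd3 rose, and was at -0.54 in those libraries against euploid (adjusted p = 0.0691, edgeR). The library kit does not mark strand, so reads in the shared stretch cannot be told apart.

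Most genes next to Brwd1 rose in Ts65Dn. Of 12 listed neighbours, 5 rose and 0 fell against euploid, beside 25.6% and 21.1% of all tested genes, with a median of 0.26 on the log2 scale against 0.04. Of the 5 on chromosome 16, the nucleosome-binding gene Hmgn1 rose by 1.13 on the log2 scale, Psmg1, a proteasome assembly chaperone, by 0.70, Sh3bgr by 0.99 and Lca5l by 0.87, and Wrb was at 0.14 (adjusted p = 0.18, edgeR). The other gene that rose was Sh3bgrl2, near Phip, by 0.70. Hmgn1 was at 74.8 ± 2.69 CPM in euploid and 164 ± 13.9 in Ts65Dn (SD, n = 3). Near Phip, Hmgn3 had 0.17 (adjusted p = 0.0872, edgeR) and Irak1bp1 -0.02, and near Brwd3, Hmgn5 had 0.13 (adjusted p = 0.393, edgeR).

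The neighbours split in the libraries under the Ts65Dn;Brwd1+/- label, where 3 of 12 rose and 6 fell against Ts65Dn, beside 27.6% and 30.5% of all tested genes. Hmgn5 rose by 0.57 and Ttk, a spindle checkpoint kinase near Phip, by 1.24 on the log2 scale. Sh3bgr fell by 1.54, Sh3bgrl2 by 1.36 and Hmgn3 by 0.71. Psmg1 and Hmgn1, on either side of Brwd1, were at 0.02 and 0.00 and did not pass the test.

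Genes listed for the CRL4 ligase, which include many other substrate receptors beside the core subunits, were called in both directions. Of 25 listed genes, 2 rose and 6 fell in Ts65Dn against euploid, beside 25.6% and 21.1% of all tested genes, with a median of -0.02 on the log2 scale. Without Ts65Dn replicate 3 the calls numbered 5 in place of 8. Dtl, a receptor that targets replication licensing factors, rose by 0.57, and Cand2, a cullin exchange factor, by 0.41. Dcaf7 fell by 0.47 and the receptor gene Crbn by 0.41. The scaffold genes Cul4a (0.06) and Cul4b (-0.05) and the adaptor Ddb1 (0.16) did not pass the test. Against Ts65Dn, in the libraries under the Ts65Dn;Brwd1+/- label, 8 rose and 2 fell (27.6% and 30.5% of all tested genes), among them Dda1 by 0.48 and Dtl by 0.39 upward and Dcaf8 by 0.34 and Cul4a by 0.19 downward. Against euploid, 3 rose and 1 fell in those libraries, beside 14% and 15.2% of all. Dtl is an S-phase gene, and the summed cell-cycle markers given above moved the same way across the genotypes; their part in it was not tested.

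Genes listed for histone H3 lysine 4 methylation, its writers, erasers and complex subunits, mostly rose in the libraries under the Ts65Dn;Brwd1+/- label, against Ts65Dn and against euploid. Of 19 tested, 1 rose and 1 fell in Ts65Dn against euploid (25.6% and 21.1% of all tested genes), the demethylase gene Kdm5a by 0.34 upward and the methyltransferase gene Setd1b by 0.32 downward on the log2 scale. In the libraries under the Ts65Dn;Brwd1+/- label against Ts65Dn, 15 rose and 1 fell, beside 27.6% and 30.5% of all, with a median of 0.29. Setd1b rose by 0.65 and Kdm5c by 0.71, and Kdm5a fell by 0.32. Kdm5c and Kdm6a, which rose by 0.44, are X-linked and are also counted among the genes that can escape X inactivation. Kdm6a is a subunit of the MLL3/4 methyltransferase complexes that itself erases methylation of lysine 27. Against euploid 11 rose and 0 fell, beside 14% and 15.2% of all. That count of 11 was 6 with no filter on low counts and 15 with library sizes alone. It was 4 without euploid replicate 1, 2 without euploid replicate 3, 7 without Ts65Dn replicate 2, and 2, 4 and 4 without replicates 1, 2 and 3 of the third genotype. Against Ts65Dn, 11 of 12 cell-cycle genes, 10 of 12 pan-neuronal genes and 12 of 12 GABAergic markers rose in the same libraries, and their part in the list's values was not tested. The difference between comparisons was not tested.

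Insulin receptor signalling, in which Phip was first placed, held genes that rose and genes that fell. Of 19 tested genes 6 rose and 6 fell in Ts65Dn against euploid, beside 25.6% and 21.1% of all tested genes. The growth factor gene Igf1 rose by 1.62 and the adaptor Irs1, the partner of Phip, by 0.83 on the log2 scale. Igf2 fell by 1.95. In the libraries under the Ts65Dn;Brwd1+/- label against Ts65Dn, 7 rose and 8 fell (27.6% and 30.5% of all), with Akt1 up by 0.49, Igf2 down by 1.58 and Igf1 down by 1.49. Against euploid 3 rose and 4 fell, beside 14% and 15.2% of all tested genes, and without replicate 1 of the third genotype the calls numbered 4 in place of 7. The 12 markers of choroid plexus, meninges and fibroblasts summed to 204 to 827 CPM in euploid, 386 to 530 in Ts65Dn and 109 to 127 in the third genotype. In euploid Ttr alone ran from 59.7 to 641 CPM, and the list moved both ways in Ts65Dn against euploid, where 6 of its 12 genes rose and 4 fell. On the log2 scale Col1a1 rose by 2.40 and Postn by 3.56, while Dcn fell by 3.23 and Ttr fell by 4.31, 4 genes chosen after their values were seen. Their part in the Igf2 values was not tested. Insr, the receptor, was at -0.09 in Ts65Dn against euploid and did not pass the test. The comparisons share libraries, so their values are given side by side and are not independent.

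Over the 9 libraries each member had its own nearest patterns in log2 CPM, given here as a description with no test, since the libraries fall into 3 genotypes. For Brwd1 the highest Pearson r were with the spindle checkpoint kinase Bub1 (0.975), Dyrk1a (0.967), Pcna-ps2 (0.966), Psmg1 (0.966) and Cbr3 (0.964), of which Dyrk1a, Psmg1 and Cbr3 are segment genes. For Brwd3 they included Ppp4r2 (0.949), Nsd1 (0.94), Ormdl1 (0.936) and Lcorl (0.935). For Phip they were with Ubxn7 (0.984), Cep350 (0.976), Xiap (0.975), Lrrc58 (0.972) and Washc4 (0.972). Between members r was 0.561 for Brwd1 and Brwd3, -0.225 for Brwd1 and Phip and -0.331 for Brwd3 and Phip. No member was among the 5 nearest of another.

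The strongest SMARCA2/4 peak of the family lay over exon 10 of Brwd1. A peak lay there in all 3 lists, at 96059477 to 96059646 in euploid, 96059492 to 96059652 in Ts65Dn and 96059485 to 96059652 in Ts65Dn;Brwd1+/-. Fold enrichment over input was 20.4, 12.5 and 9.21, with q-values of 1.28e-74, 3.89e-39 and 6.14e-31. In euploid it was the highest fold of all 22667 peaks, in Ts65Dn the 7th of 1290 and in Ts65Dn;Brwd1+/- the 36th of 1873. The peaks were 160 to 169 bases wide, against list medians of 61 to 92 bases, and shared 155 bases. Of 21951 protein-coding genes, 1.19% were named by a peak in all 3 lists. The lists were used as deposited, and they hold peaks with a q-value of 0.05 or more, since 19897 of the euploid peaks, 410 of those in Ts65Dn and 1090 of those in Ts65Dn;Brwd1+/- lie under it. Ranks, shares of genes and values over shared peaks here are those of the whole lists.

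The fold at exon 10 was lower in both trisomic lists than in euploid. Its log2 ratio was -0.70 for Ts65Dn against euploid, with a median of -0.10 over 620 shared Ts65Dn peaks, and -1.14 for Ts65Dn;Brwd1+/- against euploid, with a median of 0.01 over 860. These values stand at the 4.52nd and 0.349th percentile of the shared peaks. The peak had the highest fold of the euploid list, so a low place for its ratio against euploid was partly set in advance. No conclusion is drawn from these percentiles. For Ts65Dn;Brwd1+/- against Ts65Dn, where the peak also ranked high, the log2 ratio was -0.44, at the 6.69th percentile. The median there was 0.12 over 284 shared peaks. The lists pool replicates, so no test of the difference was possible.

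The centre of the euploid peak lies 22965 bases into the gene, and the files place the peak in the 3 kilobases before a short annotated transcript. No ATAC peak covered exon 10 in any of the 3 genotypes. The primer pair that the methods list for genotyping the repro5 allele matches the genome at both ends of this interval, so that the peak in every list lies within the genotyping product. The part of that product in the peak was not tested, and the peak is given here as called.

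**Figure D4:**
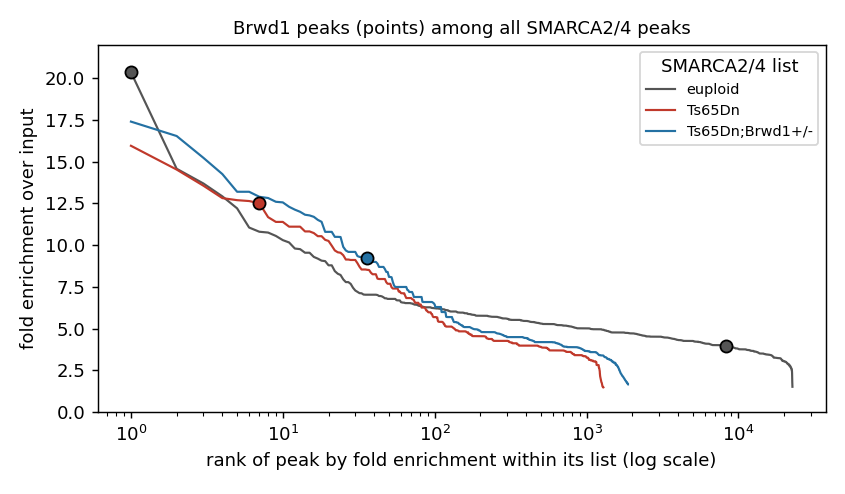
Fold enrichment over input (linear axis from 0) of every SMARCA2/4 peak against its rank within its own list (log axis), for the 3 genotypes; outlined points are the peaks that name Brwd1. The exon 10 peak is first in euploid at 20.4, 7th in Ts65Dn at 12.5 and 36th in Ts65Dn;Brwd1+/- at 9.21, and the promoter-side euploid peak lies at 3.97 in the body of its list.

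The start sites had weaker SMARCA2/4 peaks, and these were in the euploid list alone. One of fold 3.97 (q = 0.00227) lay 364 bases inside Brwd1, at 96082098 to 96082226 over exon 2, and one of fold 3.82 (q = 0.000724) lay 427 bases before Phip, at 82975847 to 82976039. Their folds exceeded 63.4% and 56.7% of the euploid list. Brwd3 had no SMARCA2/4 peak by gene name or by position. The euploid list named 29.3% of protein-coding genes, the Ts65Dn list 3.24% and the Ts65Dn;Brwd1+/- list 3.7%, so absence from the trisomic lists was the common case.

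An ATAC peak lay over all 3 start sites in every genotype. At Brwd1 the ATAC peak over the start was 218 bases wide in euploid (96082366 to 96082584, fold 3.30) and 963 bases in Ts65Dn;Brwd1+/- (96082002 to 96082965, fold 3.88). In Ts65Dn a single peak of 1555 bases (96081340 to 96082895, fold 4.21) covered both the start and a second site about a kilobase inside the gene. That second site was a separate peak in the other lists, of fold 3.03 in euploid and 2.85 in Ts65Dn;Brwd1+/-. The promoter printed above lay wholly under the peak in the trisomic lists and for 156 of its 250 bases in euploid.

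At Phip the peak over the start was 762, 981 and 1049 bases wide with folds of 4.24, 5.02 and 5.47 in euploid, Ts65Dn and Ts65Dn;Brwd1+/-. A second peak, 218 and 292 bases wide, lay over a kilobase inside the gene in euploid (fold 3.96) and Ts65Dn (fold 4.38). At Brwd3 the peak over the start was 318, 432 and 461 bases wide, with folds of 4.50, 5.91 and 5.95. The files name 2810403D21Rik for it, so that Brwd3 had 0 ATAC peaks by name and 1, 2 and 1 by position in euploid, Ts65Dn and Ts65Dn;Brwd1+/-. By name, the lists covered 41.1%, 51.9% and 51.8% of protein-coding genes, and 38.9% were named in all 3.

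ATAC fold at the start sites was higher in Ts65Dn than in euploid for all 3 members, as it was at the median shared peak. The start-site log2 ratio of Ts65Dn to euploid was 0.35 for Brwd1, 0.39 for Brwd3 and 0.24 for Phip, beside a median of 0.29 over 14574 shared peaks. These stood at the 61.0th, 67.5th and 40.6th percentile. For Ts65Dn;Brwd1+/- against Ts65Dn they were -0.12, 0.01 and 0.12 beside a median of -0.23 over 23645 shared peaks, at the 69.9th, 86.6th and 94.6th percentile. For Ts65Dn;Brwd1+/- against euploid they were 0.23, 0.40 and 0.37 beside a median of 0.06 over 14499 shared peaks, at the 80.1st, 94.5th and 92.4th percentile. A further ATAC peak of Brwd1, of fold 3.04 and 199 bases, lay 47843 bases inside the gene and was called in Ts65Dn alone, at the 7.41th percentile of its list.

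**Figure D5:**
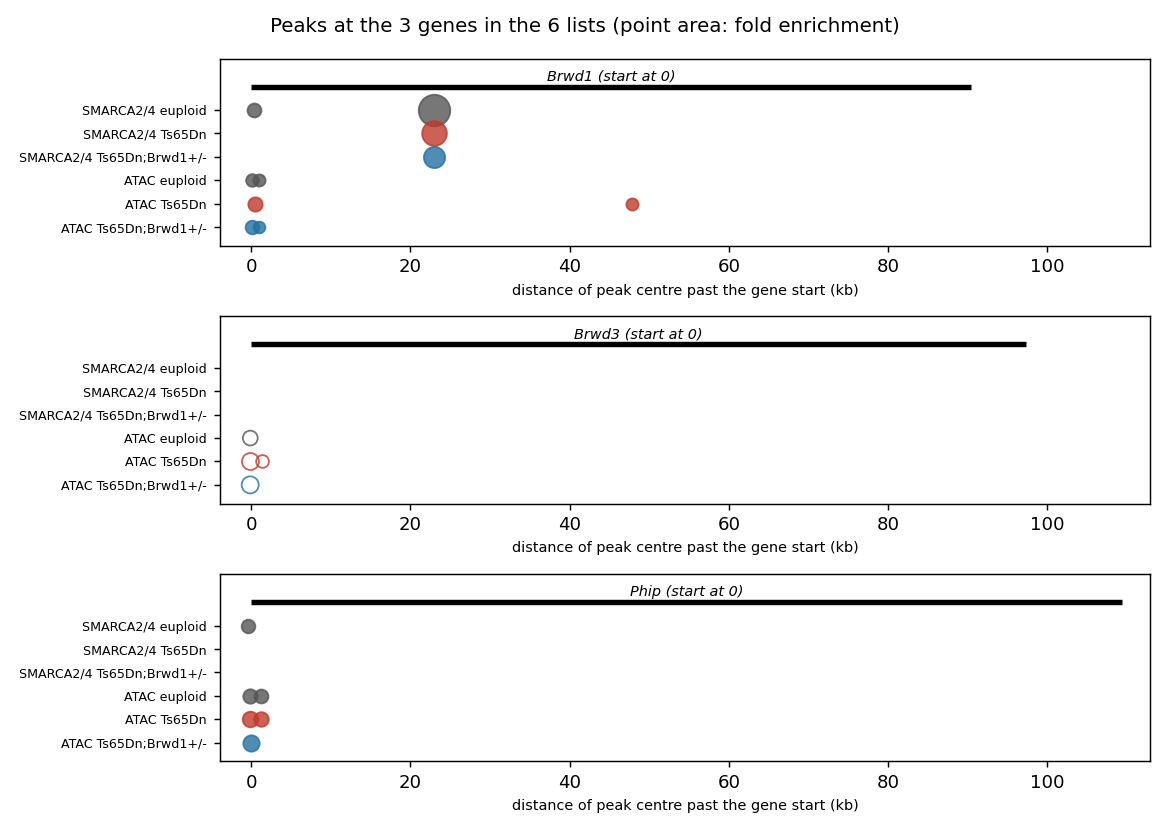
Peaks at the 3 genes in the 6 lists, by distance of the peak centre past the gene start (kb) with the gene as a black bar; filled points name the gene in the files, open points overlap it or its upstream 3 kb by position only, and point area is proportional to fold enrichment. The largest points, 20.4, 12.5 and 9.21, are the exon 10 SMARCA2/4 peaks of Brwd1, and every genotype has an ATAC peak at each start.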

How the data were processed

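The deposited culture files hold raw counts per gene, which the authors made by aligning single reads to mm10 with HISAT2 and counting on an Ensembl annotation with featureCounts, although each file ends in 5 summary lines in the form of another counter. Those lines held 37.4 to 40.0% of each library's reads and were left out. The peak lists, deposited by the authors from MACS2 calls over pooled replicates, give fold enrichment (a ratio over input or background) and a q-value per peak, with the nearest gene. Columns were mapped to genotypes by the labels.

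Counts were fitted in edgeR 4.0.16 (filterByExpr, TMM, quasi-likelihood test, all 9 libraries, genotype as the sole term), with 17173 genes tested and Benjamini-Hochberg adjustment over all. The study's own removal of unwanted variation was not run. Symbols came from GENCODE for 99.6% of genes. The fit was tested on simulated data. The members, gene lists, marker lists and alternatives were chosen with earlier results of these data known. Genes named beside the members were the 2 with the largest changes each way in each list past an adjusted p of 0.05 (Ts65Dn against euploid, or Ts65Dn;Brwd1+/- against Ts65Dn), the direct genomic neighbours, and the 5 nearest patterns; Cul4a, Cul4b, Ddb1, Insr, Eif2s3x, Kdm6a, Wrb, Lca5l, Olig1 and Olig2 were added for their role or place after their values were seen. Some genes that this rule names are not reported here.

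Same-numbered libraries were checked for pairing by correlating their deviations from the genotype means. The r values were 0.129, 0.206 and 0.263 for Ts65Dn and euploid, all over 0.1, and -0.162 to 0.279 in the other 2 comparisons, where they were not. A peak was shared at 1 bp of overlap. Count precision is set by depth, which was unknown for the peak lists.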

Additional observations from a re-analysis of the deposited data

How the results depend on the processing

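The call and direction of Brwd1 held under every alternative run: DESeq2, RLE, upper-quartile or no scaling factors, scaling on genes outside the X, Y and triplicated segment, no filter, 10 counts in every library, only the 2 genotypes compared, the replicate block and each library left out (0.45 to 0.53 for Ts65Dn against euploid). Brwd3 in Ts65Dn;Brwd1+/- against Ts65Dn kept its call under all of them (0.30 to 0.49). With the replicate block, the values for Ts65Dn against euploid were 0.50 for Brwd1, -0.05 for Brwd3 and 0.08 for Phip. The block changed no call of a member in any comparison. It moved 1 list count by 1.5 times, the CRL4 genes of Ts65Dn;Brwd1+/- against euploid, from 4 to 6.

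Phip in Ts65Dn;Brwd1+/- against Ts65Dn missed the threshold with library size alone (-0.24), with scaling outside the X, Y and segment (-0.24), with 10 counts in every library (-0.25), and in 4 of the 9 leave-one-out fits, which ranged from -0.39 to -0.25. Brwd3 in Ts65Dn;Brwd1+/- against euploid ranged from 0.21 to 0.43 in leave-one-out. Without euploid replicate 1, Brwd3 in Ts65Dn against euploid turned to 0.035, and without euploid replicate 2, Phip turned to -0.00070; neither passed the test in any setting (leave-one-out ranges -0.15 to 0.035 and -0.00070 to 0.16). The cause was not tested.

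Among the lists, H3K4 methylation genes called in Ts65Dn;Brwd1+/- against euploid fell from 11 to 6 with no filter, rose to 15 with library size alone and ranged from 2 to 11 in leave-one-out, and in Ts65Dn against euploid from 1 to 3. Other leave-one-out ranges were 5 to 9 for CRL4 in Ts65Dn against euploid, 4 to 7 for insulin receptor signalling in Ts65Dn;Brwd1+/- against euploid and 0 to 1 for genes that can escape X inactivation in Ts65Dn against euploid, which was also 0 with only the 2 genotypes compared. Y-linked calls were 0 and 0 with 10 counts in every library, a filter that removes those genes. Brwd3 ATAC peaks were 1, 2 and 1 by position in place of 0 by name. No alternative changed a peak overlap or turned a ratio between members.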

Other observations

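The remaining marker lists, 12 genes each, moved as follows in the cultures. In Ts65Dn against euploid, 9 glutamatergic and 12 GABAergic markers fell and 0 rose, beside 21.1% of all tested genes lower. In the libraries under the Ts65Dn;Brwd1+/- label against Ts65Dn, 8 glutamatergic markers rose and 1 fell, and 12 GABAergic markers rose, beside 27.6% of all tested genes higher and 30.5% lower. Against euploid, 8 GABAergic markers rose and 0 fell in those libraries, and 1 glutamatergic marker rose and 2 fell. The shares of all tested genes there were 14% higher and 15.2% lower. Oligodendrocyte lineage markers summed to 362 to 415 CPM in euploid, 614 to 715 in Ts65Dn and 959 to 1161 in the third genotype. In Ts65Dn against euploid 4 of 11 tested markers of this list rose and 1 fell, beside 25.6% of all tested genes higher and 21.1% lower. Olig1, at a mean of 220 CPM in euploid and 451 in Ts65Dn, and Olig2, at 39.7 and 57.6, are genes of the triplicated segment. Microglia markers were low, at 8.47 to 18.4 CPM in euploid, 4.89 to 8.61 in Ts65Dn and 1.34 to 2.10 in the third genotype, where 6 of 7 tested markers were lower than in Ts65Dn and 6 of 7 lower than in euploid (15.2% of all tested genes). These values stand beside the member levels given above, and their part in them was not tested.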
